A study of Mus musculus with 9 samples.

Results

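The core circadian clock was followed in MyC-CaP cells through 10 genes: the activators Arntl and Clock, the repressors Per1, Per2, Per3, Cry1, Cry2, Nr1d1 and Nr1d2, and the output gene Dbp. They were taken by symbol from a table of 15552 genes, and all 10 were among the 11373 genes with enough counts to be tested. MyC-CaP is a prostate cancer line from a MYC-driven mouse tumor. All cells were held without serum and calcium and then given recombinant NRG1, a ligand of HER3, at 15 ng/mL, and RNA was taken after 0, 12 or 24 h, with 3 libraries for each time. Every library came from the same line. The paper gives the starvation before treatment as a range of hours, without the time for each library. No library without NRG1 at a later time was analysed here, and time with NRG1 and further time without serum and calcium cannot be told apart.

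In the clock, the proteins ARNTL (also called BMAL1) and CLOCK form a dimer that switches on the Per, Cry and Nr1d genes through E-box elements. PER and CRY proteins then block the dimer, while the nuclear receptors NR1D1 and NR1D2 (REV-ERB alpha and beta) repress Arntl through ROR response elements, so that Arntl RNA and Nr1d1 or Dbp RNA normally peak at opposite times of day. The genes cycle in most mouse tissues and in cultured cells that have been synchronized, for example by a change of serum, and cells that are out of step with each other show a flat average. Samples 12 h apart at 3 times cannot give a period or a phase.

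Totals ran from 28467089 to 39239760 counts per library, and member genes had between 150 and 4636 counts in a library. Replicates differed by more than counting noise, with chi-square values per degree of freedom from 3.75 to 10.1. Replicate 3 at 12 h stood furthest from its group, with values of 9.92 and 10.1, while replicates 1 and 2 at 12 h gave 4.26. Of the luminal epithelial markers, Krt8 was at 18.2 ± 1.30 CPM at 0 h (SD, n = 3), but Cdh1 was at 0.0824 ± 0.0737 CPM and Epcam was listed at 0 in every 0 h library, so these epithelial markers were near absent from cells labelled epithelial-like. Summed fibroblast markers lay between 15.3 and 18.0 CPM over all libraries, almost all of it Pdgfra (16.8 CPM on average at 0 h), with Col1a1, Col1a2, Pdgfrb and Dcn at most at 0.31 CPM on average. Immune markers lay between 0.390 and 1.11 CPM, and endothelial markers between 0 and 0.359 CPM. CPM are read counts relative to the TMM-scaled total of each library.

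The elements through which the loop is known to act were looked for in RefSeq promoter windows (GRCm38.p6, 250 bases before to 50 after each transcription start), which were at hand for 13 starts of 9 members, all but Per2. The motifs searched, on both strands, were the E-box CACGTG, the E-prime box CACGTT, the D-box TTATGTAA, the core of the ROR response element TAGGTCA and the cAMP response element TGACGTCA. No 2 matches shared a base. Matches were found in 6 of the 13 windows, and all 8 are shown, as matches of letters only. The motif is in capitals, lines read in the direction of the gene, and a match on the opposite strand appears as its reverse complement.
Per1 E-box, chr11:69098783-69098788, plus-strand gene, at -166 from its start, in an intron by GENCODE: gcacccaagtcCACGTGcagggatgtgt
Cry1 E-box, chr10:85185109-85185114, minus-strand gene, at -60 from its start: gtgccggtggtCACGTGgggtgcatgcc
Cry1 E-prime box, chr10:85185128-85185133, minus-strand gene, at -79 from its start, reverse complement: cacacttcagaAACGTGaggtgccggtg
Cry2 E-prime box, chr2:92434230-92434235, minus-strand gene, at -166 from its start, reverse complement: cacatggtgggAACGTGagggggcggag
Nr1d1 E-prime box, chr11:98775400-98775405, minus-strand gene, at -28 from its start, reverse complement: gcacagatctcAACGTGccggctgctgg
Per3 first D-box, chr4:151044863-151044870, minus-strand gene, at -205 from its start: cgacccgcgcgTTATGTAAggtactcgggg
Per3 second D-box, chr4:151044816-151044823, minus-strand gene, at -158 from its start: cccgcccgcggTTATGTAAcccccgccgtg
Arntl ROR element core, chr7:113207541-113207547, plus-strand gene, position 31 after the second start, in an untranslated part by GENCODE: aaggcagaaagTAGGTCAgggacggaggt

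Of all 32851 RefSeq windows, 7.15% held the E-box, 4.68% the E-prime box, 0.938% the D-box, 2.61% the ROR element core and 1.79% the cAMP response element. Counted by gene, with any window of a gene, the shares were 8.09%, 5.44%, 1.11%, 2.97% and 2.03% in that order. Among the 9 members with a window, 2 held an E-box, 3 an E-prime box, 1 the D-box and 1 the ROR element core, and 0 held the cAMP response element. The windows of Clock, Nr1d2 and Dbp held none of these letters. Such matches describe the sequence, and say nothing of what was bound in these cells.

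**Figure D1:**
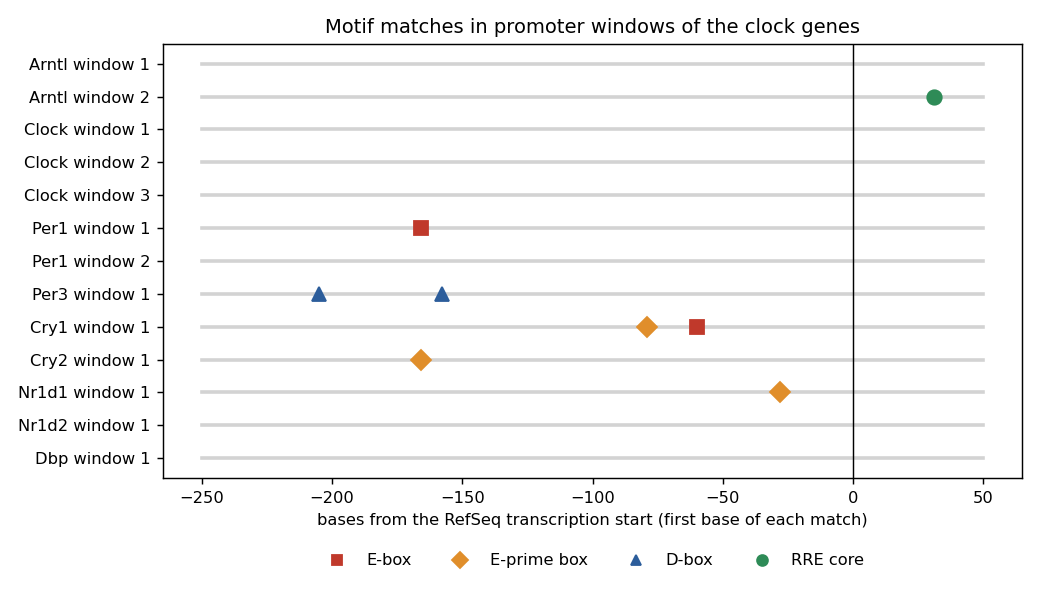
Position of each motif match, in bases from the transcription start, in the 13 promoter windows of 9 clock genes; grey lines are the windows and the vertical line is the start. The 8 matches fell in 6 windows, with the 2 D-boxes in Per3 and the ROR element core just after a start of Arntl.

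The first question was which clock genes differed after 12 h. Arntl, Cry1 and Cry2 rose, Per2, Per3 and Nr1d2 fell, and Per1, Clock, Nr1d1 and Dbp did not pass the test (edgeR quasi-likelihood F-test, adjusted p at most 0.05 over all genes tested). Thus 3 of 10 members rose, beside 13.6% of all genes tested, and 3 of 10 fell, beside 11.9%. A passing change of at least 1.5-fold was reached by 0 of 10 members, beside 2.29% of all genes, so few genes of any kind did so. The 95% intervals of all 10 members lay within 1.5-fold in either direction. The median log2 fold change of the members was -0.07, beside -0.0028 over all genes tested, and rises and falls offset each other in such a median. Without regard to sign, the median log2 fold change over all genes was 0.111. The passing members lay above it in size, from 0.16 for Cry1 to 0.39 for Arntl. The test itself picks larger changes, so their place above that median is no separate result. Per1, Clock and Nr1d1 lay below it and Dbp about at it. By non-overlap of the 12 h and 0 h libraries in CPM, 3 members lay above and 4 below, 7 of 10 in all beside 38.4% of genes.

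After 24 h, only Arntl rose and only Per2 fell. This was 1 of 10 members higher, beside 9.67% of all genes tested, and 1 of 10 lower, beside 7.76%. Again 0 of 10 reached 1.5-fold, beside 2.27%, and the 24 h and 0 h libraries did not overlap for 3 of 10 members, Arntl, Cry1 and Per2, beside 35.5%. The median log2 fold change was -0.04, and that of all genes -0.0065. Both comparisons use the same 0 h libraries.

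**Figure D2:**
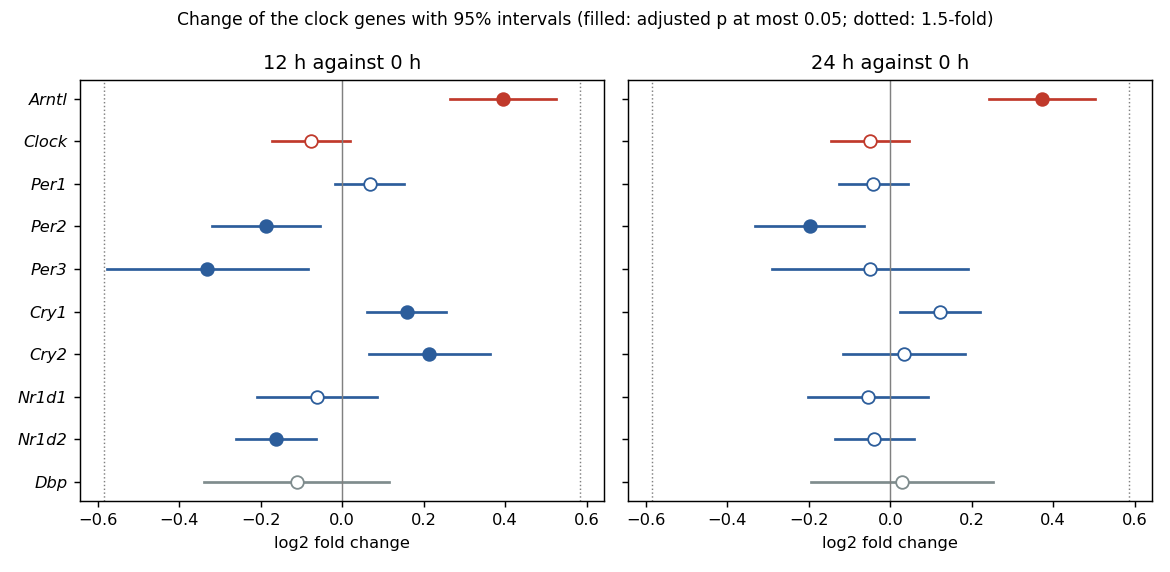
Log2 fold change (points) with 95% interval (bars) of the 10 clock genes at 12 h and at 24 h against 0 h; red marks activators, blue repressors and grey Dbp, filled points passed an adjusted p of 0.05, and dotted lines mark 1.5-fold. Arntl stood at 0.39 and 0.37, and every interval lay inside the dotted lines.

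Of the activators, Arntl rose and Clock did not pass. Arntl (ENSMUSG00000055116.8, chr7:113207465-113314126, plus strand) encodes the partner whose RNA cycles most in the textbook clock. Its level was 22.7, 23.6 and 22.4 CPM in the 3 libraries at 0 h, 28.7, 29.7 and 32.0 CPM at 12 h, and 28.2, 28.9 and 31.6 CPM at 24 h. All 6 later libraries lay above all 3 at 0 h, and those at 12 and 24 h overlapped. The log2 fold change was 0.39 ± 0.0617 (SE), a 1.31-fold rise, at 12 h (in edgeR, adjusted p = 0.000188), and 0.37 ± 0.0615, or 1.29-fold, at 24 h (adjusted p = 0.000432). Both calls held in all 15 alternative fits, including each in which 1 library was left out, with log2 fold changes from 0.36 to 0.43 at 12 h and from 0.32 to 0.40 at 24 h.

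Clock (ENSMUSG00000029238.11, chr5:76209868-76304792, minus strand), the gene of the DNA-binding partner of ARNTL, varied little. It was at 65.8, 66.2 and 68.8 CPM at 0 h, 62.5, 63.0 and 65.0 CPM at 12 h, and 61.2, 68.2 and 64.6 CPM at 24 h. The 12 h libraries lay just below those at 0 h, and those at 24 h overlapped both. Its log2 fold change was -0.08 ± 0.0455 at 12 h (in edgeR, adjusted p = 0.237; 95% interval -0.17 to 0.02) and -0.05 ± 0.0453 at 24 h (adjusted p = 0.507; -0.15 to 0.05). The ratio of Arntl to Clock CPM ran from 0.325 to 0.356 over the 0 h libraries. At 12 h it ran from 0.459 to 0.492, and from 0.423 to 0.490 at 24 h. These ratios did not overlap between 0 h and either later time. As Clock varied little, this repeats the Arntl values above and is no separate result, and no test of the ratios was run.

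**Figure D3:**
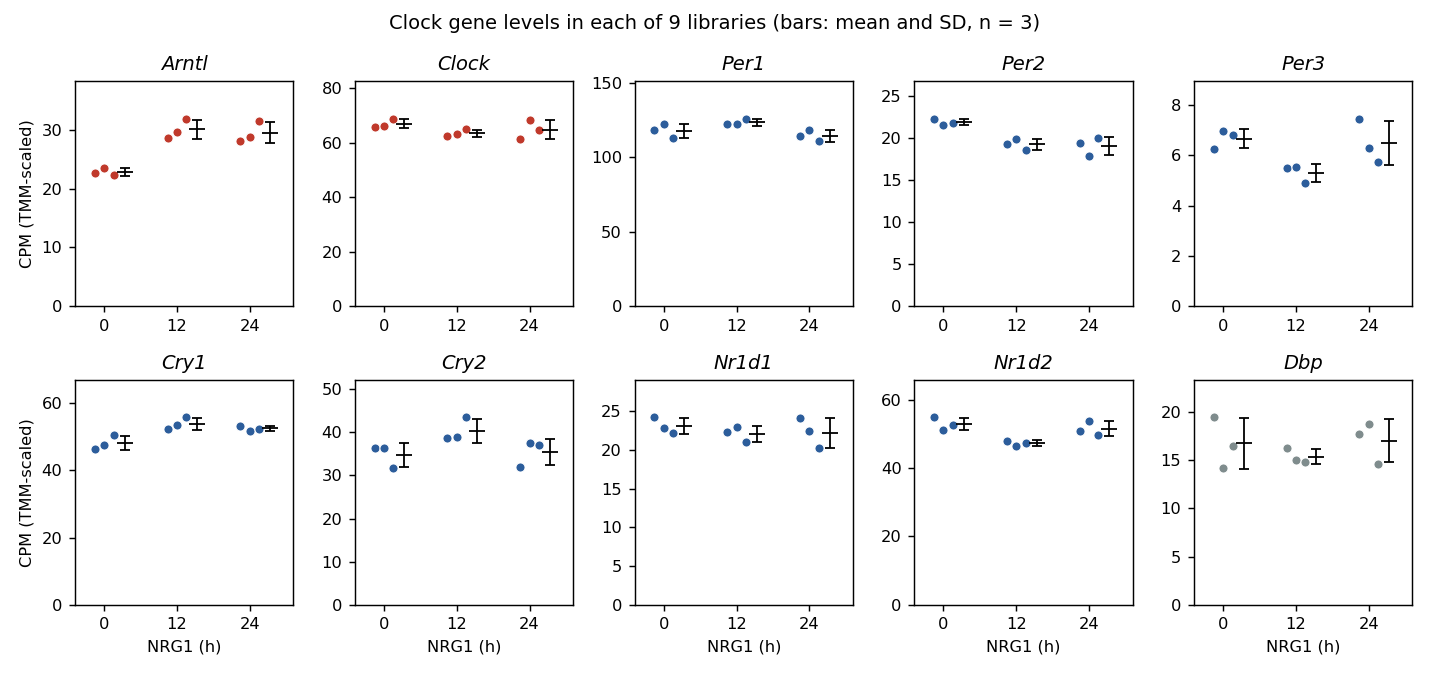
CPM of each clock gene in all 9 libraries by hours with NRG1 (points, replicates 1 to 3 from left to right), with mean and SD (n = 3) beside them; each axis starts at 0. Arntl was the gene whose 12 and 24 h libraries lay furthest above those at 0 h, from 28.2 to 32.0 CPM against 22.4 to 23.6 CPM.

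Among the repressors, both cryptochrome genes were higher at 12 h. Cry1 (ENSMUSG00000020038.10, chr10:85131700-85185064, minus strand) encodes the strongest repressor of the dimer. It was at 46.4, 47.6 and 50.5 CPM at 0 h, 52.2, 53.4 and 55.8 CPM at 12 h, and 53.3, 51.7 and 52.3 CPM at 24 h. Every later library lay above every 0 h library. Its log2 fold change was 0.16 ± 0.0463 at 12 h (in edgeR, adjusted p = 0.0185) and 0.12 ± 0.0462 at 24 h (adjusted p = 0.0803). Omitting replicate 1 at 0 h ended the 12 h call (adjusted p = 0.0675). The 24 h difference passed without replicate 3 at 0 h or replicate 3 at 12 h, at adjusted p of 0.0381 and 0.0494.

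Cry2 (ENSMUSG00000068742.11, chr2:92403646-92434043, minus strand), whose protein also binds and inhibits the dimer, passed at 12 h and not at 24 h. It was at 36.3, 36.4 and 31.7 CPM at 0 h, 38.6, 38.9 and 43.5 CPM at 12 h, and 32.0, 37.5 and 37.0 CPM at 24 h. The 12 h libraries lay above both other groups, which overlapped. The log2 fold change was 0.21 ± 0.0706 at 12 h (in edgeR, adjusted p = 0.0341) and 0.03 ± 0.0709 at 24 h (adjusted p = 0.807). Omitting replicate 3 at 0 h, the lowest Cry2 library, or replicate 3 at 12 h, the highest, ended the 12 h call, with log2 fold changes of 0.16 and 0.17 and adjusted p of 0.131 and 0.0895. Of the exonic bases of Cry2, 4.67% overlap a transcript on the other strand.

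Of the period genes, Per2 and Per3 fell and Per1 did not pass. Per1 (ENSMUSG00000020893.17, chr11:69095217-69109960, plus strand), an immediate responder to cAMP, serum and glucocorticoid signals as well as a clock repressor, was at 118, 122 and 113 CPM at 0 h, 122, 122 and 126 CPM at 12 h, and 114, 118 and 111 CPM at 24 h. The 24 h libraries lay below those at 12 h, and both overlapped those at 0 h. Its log2 fold change was 0.07 ± 0.0402 at 12 h (in edgeR, adjusted p = 0.239; 95% interval -0.02 to 0.15) and -0.04 ± 0.0402 at 24 h (adjusted p = 0.538; -0.13 to 0.04).

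Per2 (ENSMUSG00000055866.9, chr1:91415982-91459324, minus strand), whose protein is the main PER scaffold of the repressor complex, was at 22.3, 21.5 and 21.8 CPM at 0 h, 19.2, 19.9 and 18.5 CPM at 12 h, and 19.4, 17.8 and 19.9 CPM at 24 h. All 6 later libraries lay below those at 0 h. The log2 fold change was -0.19 ± 0.0630 at 12 h (in edgeR, adjusted p = 0.0380) and -0.20 ± 0.0628 at 24 h (adjusted p = 0.0372). These calls sat close to the threshold. DESeq2 gave adjusted p of 0.0568 and 0.0553, and edgeR without the filter on low counts 0.0621 and 0.0557. The 12 h call was lost without any 1 of the 3 libraries at 0 h, replicates 1 or 3 at 12 h, or replicate 1 at 24 h (adjusted p from 0.0501 to 0.145, log2 fold change from -0.19 to -0.15), and the 24 h call without any 1 library at 0 or 24 h or replicate 1 at 12 h (adjusted p from 0.0510 to 0.186).

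Per3 (ENSMUSG00000028957.12, chr4:151003652-151044665, minus strand), the period gene least needed for rhythm, was the least expressed member, with 150 to 265 counts a library. It was at 6.25, 6.97 and 6.80 CPM at 0 h, 5.50, 5.53 and 4.89 CPM at 12 h, and 7.47, 6.28 and 5.73 CPM at 24 h. The 12 h libraries lay below all others. The log2 fold change at 12 h was -0.33 ± 0.117, or 0.795-fold (in edgeR, adjusted p = 0.0469), and -0.05 ± 0.113 at 24 h (adjusted p = 0.816). The 12 h call was lost in DESeq2 (adjusted p = 0.0576) and without replicates 2 or 3 at 0 h, any 1 library at 12 h, or replicate 2 at 24 h (adjusted p from 0.0650 to 0.145).

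The REV-ERB genes, direct targets of the dimer and repressors of Arntl, were next, and Nr1d2 fell at 12 h while Nr1d1 did not pass. Nr1d2 (ENSMUSG00000021775.11, chr14:18204054-18239127, minus strand) was at 54.9, 51.2 and 52.6 CPM at 0 h, 48.0, 46.3 and 47.4 CPM at 12 h, and 50.7, 53.9 and 49.7 CPM at 24 h. The 12 h libraries lay below all others, which overlapped. Its log2 fold change was -0.16 ± 0.0466 at 12 h (in edgeR, adjusted p = 0.0170) and -0.04 ± 0.0462 at 24 h (adjusted p = 0.624). Omitting replicate 1 at 0 h or replicate 2 at 12 h ended that call, at adjusted p of 0.0653 and 0.0593.

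Nr1d1 (ENSMUSG00000020889.11, chr11:98767932-98775333, minus strand) was at 24.2, 22.9 and 22.1 CPM at 0 h, 22.2, 23.0 and 20.9 CPM at 12 h, and 24.0, 22.4 and 20.2 CPM at 24 h, so all groups overlapped. The log2 fold change was -0.06 ± 0.0700 at 12 h (in edgeR, adjusted p = 0.567; 95% interval -0.21 to 0.09) and -0.06 ± 0.0697 at 24 h (adjusted p = 0.649; -0.20 to 0.09). Of its exonic bases, 8.55% overlap Thra on the other strand, and whether the counting used strand was not stated.

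Dbp (ENSMUSG00000059824.12, chr7:45705088-45710203, plus strand), a D-box activator whose RNA has among the widest daily swings of clock output genes in mouse liver, was at 19.4, 14.2 and 16.5 CPM at 0 h, 16.3, 15.1 and 14.8 CPM at 12 h, and 17.8, 18.8 and 14.5 CPM at 24 h. The groups overlapped, and the 0 h libraries held both the lowest and the highest of the 9 values. The log2 fold change was -0.11 ± 0.107 at 12 h (in edgeR, adjusted p = 0.490; 95% interval -0.34 to 0.12) and 0.03 ± 0.106 at 24 h (adjusted p = 0.894; -0.20 to 0.25). Its exons overlap Sphk2 on the other strand over 18.0% of their length, so its counts may hold reads of that gene. In bulk RNA, fewer cells expressing a gene and less RNA per cell cannot be told apart for this or any other member.

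**Figure D4:**
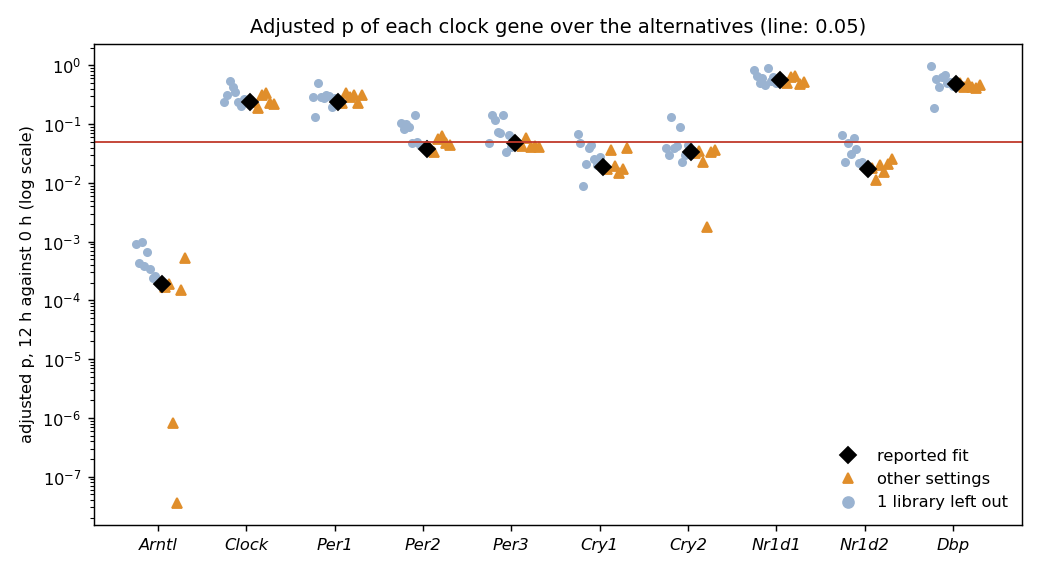
Adjusted p of each clock gene at 12 h against 0 h on a log scale, for the reported edgeR fit (diamonds), 6 other settings (triangles) and 9 fits that each left out 1 library (circles); the line marks 0.05. Arntl stayed at or below 0.000978 in every fit, while Per2, Per3, Cry1, Cry2 and Nr1d2 lay on both sides of the line.

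The step from 12 to 24 h was tested directly. Of the 10 members, 0 rose and 0 fell by the edgeR test, beside 1.97% and 3.06% of all genes, and 0 reached 1.5-fold, beside 0.290%. At an unadjusted p under 0.05 there were 4 of 10 members, beside 20.1% of all genes: Per3 with a log2 difference of 0.28 ± 0.117 and Nr1d2 with 0.12 ± 0.0466 were higher at 24 h, and Per1 with -0.11 ± 0.0402 and Cry2 with -0.18 ± 0.0703 were lower. Their adjusted p in edgeR ran from 0.129 for Per1 to 0.185 for Per3, and DESeq2 also called 0 members. With no filter on low counts, edgeR called 1 member, Cry2 (adjusted p = 0.0339). For the same 4 genes the 24 h libraries did not overlap those at 12 h, 4 of 10 beside 25.0% of genes.

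The middle time, 12 h, was also set against the average of 0 and 24 h, a contrast that can pass through a difference from 1 end only. Arntl (log2 difference 0.21 ± 0.0525, by edgeR an adjusted p = 0.0123) and Cry2 (0.20 ± 0.0606, adjusted p = 0.0346) were higher, 2 of 10 beside 9.57% of all genes, and Nr1d2 was lower (-0.14 ± 0.0406, adjusted p = 0.0239), 1 of 10 beside 7.08%. No member reached 1.5-fold (0 of 10), beside 0.563%. Per3 lay at the threshold with the largest difference, -0.31 ± 0.102 (adjusted p = 0.0502). For Arntl the 12 and 24 h libraries overlapped and both lay above those at 0 h. Arntl, Cry2 and Nr1d2 did not pass in edgeR for 24 h against 12 h (adjusted p = 0.877, 0.152 and 0.145). Their calls here thus do not show that 12 h differed from both ends. Cry2 lost its call without replicate 3 at 0 h, any 1 library at 12 h, or replicate 1 at 24 h (adjusted p from 0.0502 to 0.113), and Nr1d2 without any 1 library at 12 h or replicate 2 at 24 h (adjusted p from 0.0523 to 0.0919). An omnibus edgeR test over the 3 times passed for 4 of 10 members, Arntl (adjusted p = 0.000208), Nr1d2 (0.0345), Cry1 (0.0364) and Per2 (0.0367), beside 27.4% of all genes.

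Levels were compared between members only per length, as CPM per kilobase of exon. At 0 h the order was Per1 at 20.9 ± 0.814 (SD, n = 3), Cry1 at 14.4 ± 0.633, Nr1d2 at 9.78 ± 0.339, Nr1d1 at 7.49 ± 0.346, Dbp at 5.59 ± 0.874, Cry2 at 5.50 ± 0.428, Clock at 4.88 ± 0.120, Per2 at 3.74 ± 0.0645, Arntl at 3.04 ± 0.0825 and Per3 at 0.694 ± 0.0393. The ranges of Dbp and Cry2, and of Cry2 and Clock, overlapped, and other neighbours stood apart. Arntl passed Per2 at the later times, with 4.0 ± 0.225 against 3.28 ± 0.118 at 12 h and 3.93 ± 0.241 against 3.25 ± 0.190 at 24 h. Across all 9 libraries the highest level of a member was between 1.13 times (Clock) and 1.53 times (Per3) its lowest.

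The wider clock was described from lists of related genes, each by its counts of calls, adjusted over all genes tested. Of all genes, the share called was 13.6% higher and 11.9% lower at 12 h against 0 h, 9.67% and 7.76% at 24 h against 0 h, with medians of -0.0028 and -0.0065. Npas2 and Arntl2, the paralogs of Clock and Arntl, had mean levels of at most 0.0539 CPM and were not testable.

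Other repressors and D-box factors held 5 tested genes, and 3 of them rose at 12 h with a list median of 0.13, while 0 fell, beside 13.6% and 11.9% of all genes. Bhlhe40 (DEC1), which competes for E-boxes, was at 257 ± 15.0, 321 ± 7.29 and 255 ± 5.63 CPM in time order. It rose by a log2 fold change of 0.32 ± 0.0417 at 12 h (in edgeR, adjusted p = 3.43e-05) and fell by 0.33 on the log2 scale from 12 to 24 h (SE 0.0417, adjusted p = 0.000264). Ciart (CHRONO), a repressor of the dimer, was at 57.7 ± 3.19, 72.2 ± 2.34 and 61.6 ± 4.99 CPM, a rise of 0.32 ± 0.0569 (adjusted p = 0.000535) that turned back by 24 h (-0.23 ± 0.0566 from 12 h, adjusted p = 0.0267). Nfil3, a D-box repressor, was at 165, 168 and 150 CPM at 0 h and 180, 167 and 182 CPM at 12 h. These groups overlapped, and its rise of 0.13 ± 0.0466 at 12 h sat close to the threshold (in edgeR, adjusted p = 0.0479). The alternative fits were not examined for genes outside the 10 members. At 24 h against 0 h, 0 of the 5 passed in either direction, beside 9.67% and 7.76% of all genes.

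Kinases and ligases that set the turnover of PER and CRY had 1 of 14 tested genes higher and 1 lower at both later times, no more than the 7.76% to 13.6% of all genes called in one direction. The riser was Gsk3a (0.15 ± 0.0401 at 12 h, by edgeR an adjusted p = 0.00972), which shares 28.3% of its exonic bases with an antisense transcript, and the faller was Ddb1, an adaptor of CUL4 ligases (-0.14 ± 0.0324, adjusted p = 0.00514). Partners and corepressors had 3 genes higher and 2 lower of 13 at 12 h, beside 13.6% and 11.9% of all genes, with a list median of -0.08. Timeless (0.59 ± 0.0898, adjusted p = 0.000155) and Tipin (0.52 ± 0.0591, adjusted p = 9.69e-06), whose products act mainly at replication forks in mammals, rose at 12 h and were still higher at 24 h, at 0.62 ± 0.0893 and 0.34 ± 0.0594. Hdac3, the deacetylase recruited by REV-ERB, rose by 0.17 ± 0.0417 at 12 h (adjusted p = 0.00663) and fell by 0.20 on the log2 scale from 12 to 24 h (SE 0.0417, adjusted p = 0.0108), ending at -0.03 against 0 h (adjusted p = 0.673). Ncor1, which links HDAC3 to REV-ERB, fell at 12 h, with -0.19 ± 0.0410 (adjusted p = 0.00277), and stood at -0.09 ± 0.0409 at 24 h (adjusted p = 0.147).

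Outputs that cycle in many mouse tissues had 5 of 12 higher and 1 lower at 12 h (median 0.15), beside 13.6% and 11.9% of all genes. At 24 h they had 2 higher and 0 lower (median 0.05), beside 9.67% and 7.76%. Cdkn1a, an inhibitor of cell cycle kinases, was at 47.4 ± 6.52, 85.1 ± 12.5 and 56.8 ± 2.20 CPM in time order, with 0.84 ± 0.0929 at 12 h (in edgeR, adjusted p = 7.82e-06) and of -0.58 ± 0.0916 from 12 to 24 h (adjusted p = 0.00152). Wee1, a mitotic brake kinase with E-boxes in its promoter, was at 17.5 ± 0.821, 26.1 ± 2.42 and 28.9 ± 0.668 CPM, higher by 0.57 ± 0.0695 at 12 h (adjusted p = 1.90e-05) and 0.72 ± 0.0686 at 24 h (adjusted p = 1.93e-06). Noct, a deadenylase-like enzyme, rose by 0.34 ± 0.0597 at 12 h (adjusted p = 0.000542) and fell by 0.26 on the log2 scale from 12 to 24 h (SE 0.0594, adjusted p = 0.0167). Herpud1, an endoplasmic reticulum stress gene, rose by 0.24 ± 0.0381 at 12 h and 0.32 ± 0.0380 at 24 h (adjusted p = 0.000224 and 1.52e-05). Over the same times all 7 cell cycle markers rose, with medians of 0.52 at 12 h and 0.57 at 24 h, for example Top2a by 0.54 ± 0.0575 and 0.68 ± 0.0575. The part of cell division in the changes of Wee1, Cdkn1a, Timeless and Tipin was not tested.

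A further list covered acute input to the Per genes by cAMP, serum and glucocorticoid signalling. It held signal components and also genes that respond to such signals, such as Fos. At 12 h, 1 of 14 was higher and 1 lower, beside 13.6% and 11.9% of all genes. At 24 h, 0 were higher and 1 lower, beside 9.67% and 7.76%. No library was taken between 0 and 12 h, so a response that was over before 12 h could not be seen. Nr3c1, the glucocorticoid receptor, had too few counts to be tested, at most 0.30 CPM on average. Fosl1, an AP-1 gene, was at 25.2 ± 1.52, 38.5 ± 2.12 and 27.2 ± 0.372 CPM, a rise of 0.61 ± 0.0583 at 12 h (in edgeR, adjusted p = 2.24e-06), but 57.2% of its exonic bases overlap Ccdc85b on the other strand. Fos was at 21.1 ± 1.34, 22.2 ± 3.02 and 14.8 ± 0.421 CPM, with 0.07 ± 0.0837 at 12 h (adjusted p = 0.594) and -0.52 ± 0.0866 at 24 h (adjusted p = 0.000467). Crtc1, a coactivator of CREB, fell at 12 h, with -0.19 ± 0.0622 (adjusted p = 0.0347).

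**Figure D5:**
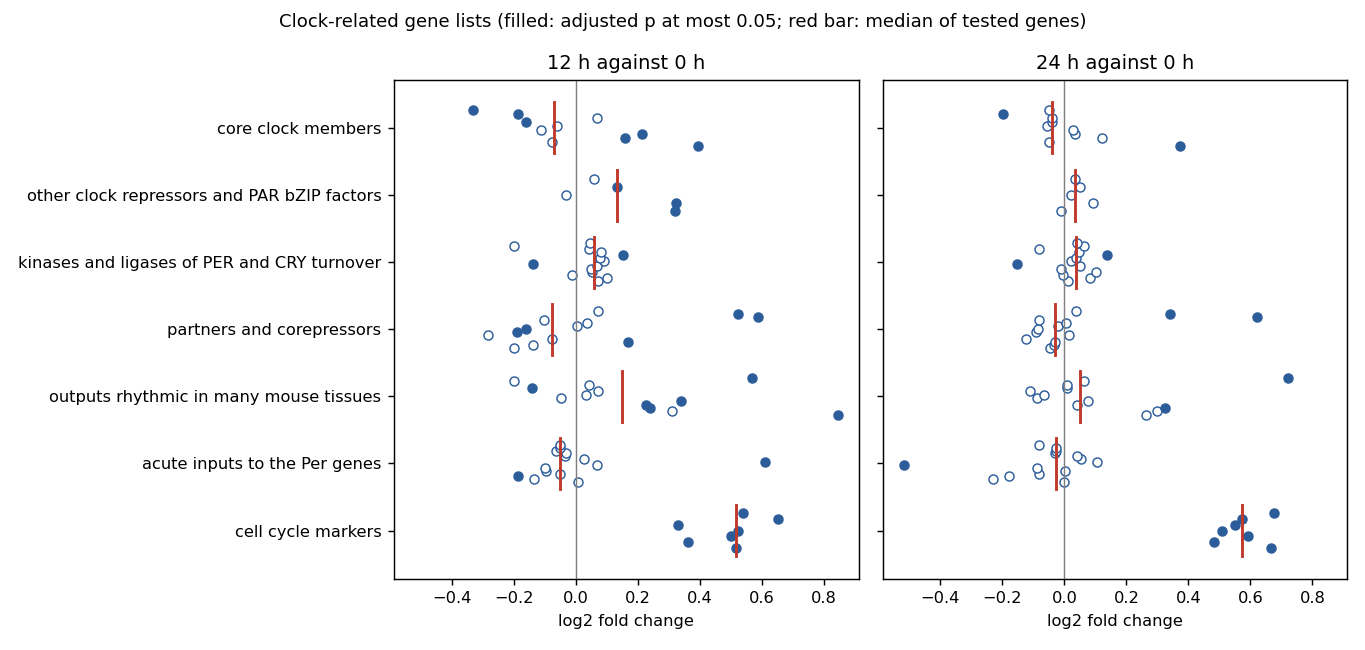
Log2 fold change of every tested gene in 7 clock-related lists at 12 h and 24 h against 0 h (points, filled where the adjusted p was at most 0.05), with the median of each list (red bar). The core members lay on both sides of 0 with medians of -0.07 and -0.04, and the 7 cell cycle markers all lay above 0.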

How the data were processed

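RNA from 9 libraries of MyC-CaP cells was sequenced by the authors as paired-end reads, trimmed with Cutadapt, aligned to GRCm38 with STAR and counted with featureCounts under GENCODE annotation. The deposited values are raw read counts per gene, unnormalized. Strand setting and the treatment of reads matching several genes were not stated in the sources used here. The labels give biological replicates, and groups were taken from their times.

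Counts were filtered with filterByExpr (11373 of 15552 genes), scaled by TMM and fitted over all 9 libraries with glmQLFit in edgeR 4.0.16 under R 4.3.3. Contrasts used glmQLFTest with Benjamini-Hochberg adjustment over all genes tested, two-sided, passing at 0.05, and a 1.5-fold threshold was counted separately. DESeq2 1.42.0, other scalings, no filter, a replicate block, 2-time fits and the omission of each library were alternatives. The procedure was tested on simulated data with genes changed at 12 h. There edgeR recovered 58.3% of the genes changed 1.2-fold and 84.4% of those changed 1.5-fold. Small changes could thus be missed. In that simulation 199 of the genes tested were changed, while 2896 genes passed at 12 h in the data. An adjusted p of 0.05 was therefore harder to reach there, and these shares do not give the recovery for the members. Exon lengths and overlaps came from GENCODE vM21 and promoter windows from RefSeq (GRCm38.p6). The members and gene lists were chosen with earlier results of these data known. All 10 members were named, plus up to 4 genes of each related list, and up to 2 cell cycle markers, with the largest absolute change among those passing in any pairwise comparison. Some genes of these lists are not reported here.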

Additional observations from a re-analysis of the deposited data

How the results depend on the processing

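The members passing at 12 h against 0 h numbered 6, with 4 in DESeq2, 5 without the low-count filter and 3 to 6 when 1 library was left out; 3 was reached without replicates 1 or 3 at 0 h or replicate 3 at 12 h. At 24 h against 0 h they numbered 2, with 1 in DESeq2, 1 without the filter and 1 to 3 with 1 library left out. From 12 to 24 h there were 0, with 1 without the filter. For 12 h against the average of both ends there were 3, with 1 to 4, and for the omnibus test 4, with 1 to 3. The replicate block gave 6, 2, 0, 4 and 4 members in these 5 tests, and in the 4 contrasts changed no member call but that of Per3 at 12 h against the average of both ends, which passed (adjusted p = 0.0463 in edgeR). Replicates of the same number deviated together only weakly (correlation over genes from -0.074 to 0.131), so the numbers were not taken to pair the samples. Over all genes, 572 passed from 12 to 24 h, from 214 without replicate 1 at 12 h to 950 without the filter, and 33 also reached 1.5-fold, with 53 without the filter and 16 without replicate 1 at 24 h.

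Of the 590 alternative values for the members, 526 kept direction and call and 18 changed sign, all of results that had not passed. With 1 library left out, the log2 fold change ran from -0.22 to 0.0044 for Dbp at 12 h and from -0.076 to 0.14 at 24 h against 0 h, from -0.026 to 0.10 for Cry2, -0.16 to 0.041 for Per3 and -0.11 to 0.016 for Nr1d1 at 24 h against 0 h. From 12 to 24 h it ran from -0.042 to 0.033 for Per2 (0.0023 with total counts), -0.070 to 0.017 for Arntl, -0.048 to 0.079 for Nr1d1 and -0.015 to 0.068 for Clock, and for Nr1d1 against the average of both ends from -0.072 to 0.0089. The cause of these shifts was not tested beyond there being fewer libraries. Depth limits Per3 most, at 150 counts in its lowest library.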
